A study of Mus musculus with 5 samples.

Results

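Spermatogonia, which are germ cells that still divide by mitosis, were compared with whole testis by melRNA-seq, a library method for RNAs of medium length. The comparison sets 2 replicate libraries of spermatogonia RNA, treated with RppH (RNA 5′ pyrophosphohydrolase), against the single library of whole testis RNA that had been treated with 25 U of TAP, spelled out in the labels as tobacco alkaline phosphatase, for 1.5 h. All RNA came from C57BL/6J mice without any engineered allele. The spermatogonia were sorted by FACS for the surface protein EpCAM at postnatal day 7, and the study's supplementary legends place the whole testes at the same day. Whole testis contains germ cells together with Sertoli, Leydig, peritubular and other somatic cells, so spermatogonia are one component of the sample they were compared with. An RNA name entered the comparison if it was listed in all 3 libraries with 20 or more reads summed over them, and 18S and 28S rRNA and names that identify no RNA were left out. Of the 1020 names listed in any of the 3 libraries, 489 were listed in all of them, and 382 entered the comparison beside 5.8S rRNA, which served as the denominator. They were 119 tRNA names, 82 box C/D, 52 box H/ACA and 12 other snoRNA names, 48 LTR, 24 LINE and 3 DNA transposon names, 33 names of SINEs and their monomers, 6 snRNA, 2 Y RNA names and 5S rRNA. The tables hold no messenger RNA, so the identity of the sorted cells could not be checked against marker genes. The study calls the replicates biological, and the labels do not name the mice behind each.

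Small RNAs that end in a 5′ monophosphate accept the 5′ adaptor of such a library directly. RNAs of RNA polymerase III begin with a triphosphate and those of RNA polymerase II with a cap, and both TAP and RppH turn these ends into a monophosphate. SINEs such as mouse B1 and B2 are short retrotransposons with an internal polymerase III promoter. B1 descends from 7SL RNA, whereas B2 and ID descend from tRNAs. Most snoRNAs are cut out of introns and guide the 2′-O-methylation (box C/D) or the pseudouridylation (box H/ACA) of rRNA and snRNA. The spliceosomal U1, U4 and U5 snRNAs and the histone processing U7 snRNA carry a cap, and U6 snRNA, tRNAs, 5S rRNA and Y RNAs are made by polymerase III.

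The labels give inserts of 115 to 255 nt for all libraries, and for spermatogonia the study's methods state a gel selection without a range. The tissue, the enzyme and the library kit (TruSeq for testis and NEBNext for spermatogonia in the study's methods, although the sample labels repeat the testis protocol) changed together, so that a difference of cell type cannot be told apart from a difference of enzyme or kit. The spermatogonia libraries were deeper, with 3166394 reads in replicate 1 and 1993087 reads in replicate 2 under listed names against 1067851 in testis. The 5.8S rRNA took 50.2% of the listed reads in testis, 39.1% in replicate 1 and 25.9% in replicate 2, and 18S and 28S rRNA were listed for spermatogonia only. Ratios are therefore given both per 5.8S rRNA read and per listed read. The 95% intervals come from the read counts and cover counting error only. The minimum of 20 reads was reached mostly with spermatogonia reads. Of the 382 names, 172 had fewer than 20 reads in testis and 55 had at most 3, and such names could enter more readily when they were high in spermatogonia.

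The spermatogonia libraries held more reads under B1, B2, B3 and ID names than whole testis relative to 5.8S rRNA, whereas tRNAs and snoRNAs were split into names far above and names far below testis. In such bulk samples, fewer cells of a type and less RNA per cell cannot be told apart. Per 5.8S rRNA read, 203 of the 382 names (53.1%) were over 2-fold higher than testis in both replicates and 56 (14.7%) were over 2-fold lower. Per listed read these numbers were 167 (43.7%) and 74 (19.4%). The same 167 names were higher and 56 names lower under both denominators. In the edgeR quasi-likelihood test, in which the spread came from the 2 spermatogonia libraries alone and the lone testis library was assumed to vary like them, 130 names (34.0%) were higher and 40 (10.5%) lower per 5.8S rRNA read at an adjusted p under 0.05. Per listed read 114 names (29.8%) were higher and 58 (15.2%) lower in that test. With TMM scaling in place of either denominator, edgeR called 85 names higher and 75 lower, so the balance between the directions depended on the scaling. Among the 210 names with at least 20 reads in testis, a minimum chosen after seeing the data, 79 were over 2-fold higher and 55 lower in both replicates per 5.8S rRNA read.

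Each class was described by its median beside that of all names. The median log2 ratio of the 382 names per 5.8S rRNA read was 1.20 in replicate 1 and 1.82 in replicate 2, and per listed read it was 0.84 and 0.87. Averaged over the replicates it was 1.46 per 5.8S rRNA read, 0.80 per listed read and 0.26 with TMM scaling, and class values should be read relative to these. The ID (5.87), B2 (5.78), young B1 (5.20), older B1 (3.67) and B3 (3.43) names had the highest medians of the mean log2 ratio per 5.8S rRNA read. All B2, young B1 and B3 names had at least 20 testis reads, but 0 of the 4 ID names and 3 of the 7 older B1 names did. The ID names thus met the minimum only with spermatogonia reads. The tRNA median (2.71) was also above that of all names, but over the names with at least 20 testis reads it was 0.24 against 0.55 for all such names. The snRNA median (2.15) rests on U1 and U6, whose testis reads are uncertain, and all snRNA reads together stood at 0.373 and 1.32 times testis in the replicates. The LINE (1.66), B4 (1.76), PB1 and FAM (1.76) and LTR (1.43) medians lay close to it. The box C/D (0.70) and box H/ACA (0.72) medians were below it, with 0.044 and 0.057 per listed read, and turned negative with TMM scaling (-0.49 and -0.48). The other snoRNA names (-1.02) and the MIR names (-0.85) were below 0 under every denominator.

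**Figure D1:**
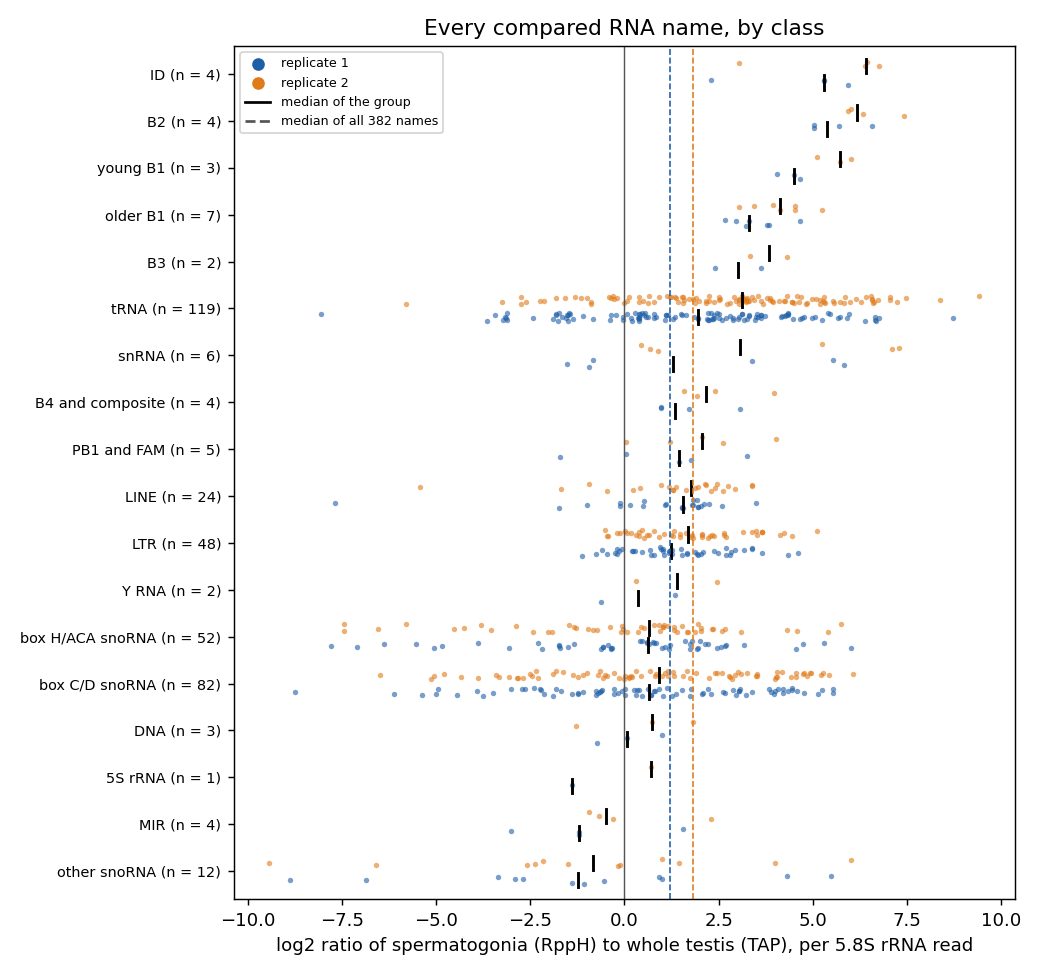
Log2 ratio of spermatogonia to whole testis per 5.8S rRNA read (horizontal axis) for each of the 382 names, by RNA class, with replicate 1 in blue, replicate 2 in orange, short black bars for class medians and dashed lines for the medians of all names (1.20 and 1.82). All ID, B2, B1 and B3 points lie right of 0, while snoRNA and tRNA points spread to both sides, and B1F1, with 0 testis reads, is drawn at the bound that 3 reads give.

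All 4 B2 names were higher in spermatogonia. The testis tables spell them B2_MM and the spermatogonia tables B2_Mm, and they were matched across the spelling. B2_Mm2, the subfamily with most reads, had 362 reads in testis, 79910 in replicate 1 and 60222 in replicate 2. Its level was 95.7 times (95% interval 86.3 to 106) that of testis per 5.8S rRNA read in replicate 1 and 173 times (156 to 192) in replicate 2, and 74.4 and 89.1 times per listed read. B2_Mm1a had 143, 17088 and 11190 reads, with ratios of 51.8 and 81.3 per 5.8S rRNA read. B2_Mm1o had 297, 22401 and 17386 reads (32.7 and 60.9), and B2_Mm1t had 120, 9149 and 7493 (33.0 and 64.9). In each replicate the interval of B2_Mm2 lay above those of the other subfamilies, while the intervals of B2_Mm1o and B2_Mm1t overlapped. The edgeR test gave adjusted p values per 5.8S rRNA read of 0.0096 for B2_Mm2, 1.5e-06 for B2_Mm1a, 8.1e-05 for B2_Mm1o and 9.4e-08 for B2_Mm1t, and values of at most 0.0073 per listed read.

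The 10 B1 names were higher as well, the young subfamilies by more than most of the older ones. B1_Mm, the youngest of them, had 163 reads in testis, 8557 in replicate 1 and 10077 in replicate 2, and its ratio per 5.8S rRNA read was 22.7 (19.5 to 26.6) and 64.3 (55.1 to 75). B1_Mus2 had 194, 11366 and 9872 reads with ratios of 25.4 and 52.9, and B1_Mus1 had 200, 7672 and 6663 reads with ratios of 16.6 and 34.6. The order of B1_Mm and B1_Mus2 differed between the replicates. Among the older subfamilies, B1_Mur4 had 45, 1439 and 1004 reads and was 13.9 and 23.2 times higher, and B1_Mur3 with 17, 561 and 379 reads was 14.3 and 23.2 times higher. B1_Mur2 (9.84 and 15.5) and B1_Mur1 (6.41 and 10.9) had lower ratios. For B1F2 edgeR gave a log2 ratio of 3.70 per 5.8S rRNA read (adjusted p = 0.024) and 2.99 per listed read (adjusted p = 0.021). B1F, with 4 reads in testis, 233 in replicate 1 and 145 in replicate 2, had ratios of 25.2 (9.39 to 67.8) and 37.7 (14 to 102), intervals that reached those of the young subfamilies. B1F1 had no testis read and 54 and 24 spermatogonia reads, so it was at least 7.80-fold and 8.32-fold higher when the testis library was set to 3 reads. All 10 names passed the edgeR test under both denominators. Of the 7 older names, 4 had fewer than 20 testis reads and met the minimum through spermatogonia reads, so the test adds no support for these.

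The ID names, which descend from the BC1 gene, were low in testis. ID4 and ID4_ had 11 testis reads each, 1007 and 1004 in replicate 1, and 891 and 928 in replicate 2, and their ratios per 5.8S rRNA read were 39.7 and 39.6 in replicate 1 and 84.2 and 87.7 in replicate 2. ID2 had 1 read in testis against 142 and 105, a ratio of 61.5 with an interval of 8.61 to 440 in replicate 1, and ID had 11 against 126 and 88 (4.96 and 8.32). The 4 names passed the edgeR test per listed read, and ID did not pass it per 5.8S rRNA read (adjusted p = 0.066). All 4 had fewer than 20 testis reads and met the minimum only through spermatogonia reads. The test thus cannot stand as support that they were higher. B3 and B3A, older tRNA-derived elements related to B2, had 309 and 120 reads in testis, 8851 and 1468 in replicate 1, and 5971 and 1171 in replicate 2. The ratio of B3 was 12.4 and 20.1 and that of B3A 5.30 and 10.1, and both passed the edgeR test under each denominator.

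The composite and ancestral elements differed less from testis. B4A had 191 testis reads against 856 and 705 in spermatogonia, ratios of 1.94 (1.66 to 2.27) and 3.84 (3.27 to 4.50) per 5.8S rRNA read, and B4 had 60 against 273 and 173 (1.97 and 3.0). Neither was past 2-fold in both replicates and neither passed the edgeR test (adjusted p = 0.052 and 0.25). RSINE1 with 143, 1090 and 732 reads (3.30 and 5.32) and ID_B1, a dimer of an ID and a B1 unit, with 64, 1245 and 962 reads (8.43 and 15.6) were past it. RSINE1 passed edgeR per 5.8S rRNA read but not per listed read (adjusted p = 0.0073 and 0.072). Of the 7SL-derived monomers, PB1D9 had 26, 568 and 405 reads and was 9.47 and 16.2 times higher (edgeR adjusted p = 0.00026), PB1D7 3.39 and 6.17 times and PB1D10 2.73 and 4.18 times. PB1 had 94, 223 and 210 reads and ratios of 1.03 and 2.32. FAM, the fossil monomer that preceded B1, had 122, 86 and 121 reads with ratios of 0.305 (0.232 to 0.403) and 1.03 (0.802 to 1.33). It was thus below testis in replicate 1, while the interval of replicate 2 included 1. Per listed read its mean log2 ratio was -1.49. MIR, an ancient tRNA-derived SINE, had 16, 108 and 76 reads (2.93 and 4.94). MIR3, MIRb and MIRc, named here after their values were seen, had 9 to 14 testis reads and ratios between 0.124 and 0.809, and were over 2-fold lower per listed read only, MIR3 alone passing edgeR there (adjusted p = 0.036).

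tRNA names carry the chromosome, a running number, the amino acid and the anticodon of a tRNA gene, and mature tRNAs are shorter than the selected inserts. Reads of near-identical tRNA genes can be exchanged in the assignment, so the split among names of one anticodon is uncertain. Of the 119 names, 71 (59.7%) were over 2-fold higher in both replicates per 5.8S rRNA read and 12 (10.1%) lower, near the 53.1% and 14.7% of all 382 names. On that scale edgeR called 56 higher and 9 lower, beside 34.0% and 10.5% of all names. Per listed read 65 (54.6%) were higher and 18 (15.1%) lower, beside 43.7% and 19.4% of all names. Of the 119 names, 69 had fewer than 20 testis reads and 27 had at most 3. Among the 50 names with at least 20 testis reads, 13 (26%) were higher and 11 (22%) lower in both replicates. These shares stand beside 37.6% and 26.2% of the 210 names of all classes with as many testis reads. The median log2 ratio of the 50 names was 0.24 against 2.71 for all tRNA names.

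The median of the mean log2 ratio per 5.8S rRNA read was 5.88 for the 8 serine names, 5.04 for the 4 cysteine names and 4.27 for the 20 alanine names. For glutamate (4 names) it was -1.80 and for glutamine (4 names) -1.71, and for the 12 arginine names it was 0.10. This order went along with the testis reads that the minimum let in. The serine, cysteine and alanine names had medians of 4.5, 3.5 and 9 testis reads, against 633.5 for glutamate, 27.5 for glutamine and 32 for arginine. No serine or cysteine name had 20 testis reads. Over the names that did, the median was 3.23 for 6 alanine, -1.80 for 4 glutamate, -2.53 for 3 glutamine and -0.15 for 8 arginine names. Names of one amino acid were not uniform. The glutamate names ran from -3.21 to 2.91 and the arginine names from -6.93 to 4.01.

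The leucine name chr13.trna991-LeuTAA had the most reads of the tRNA names when the 3 libraries were summed, though not in replicate 1 alone. It had 10855 and 23301 reads in spermatogonia against 257 in testis. Per 5.8S rRNA read replicate 1 stood at 18.3 times testis (16.2 to 20.7) and replicate 2 at 94.3 times (83.3 to 107), and edgeR gave an adjusted p of 6.1e-05. The highest ratio of all 382 names was that of chr6.trna1023-CysGCA, which had 2 reads in testis, 1949 in replicate 1 and 1326 in replicate 2. Its ratios of 422 and 689 rest on those 2 reads, and their intervals began at 106 and 172. The serine name chr13.trna972-SerCGA had 2, 501 and 256 reads (109 and 133) and the tyrosine name chr13.trna959-TyrGTA 1, 140 and 323 (60.7 and 336).

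In the opposite direction, chr3.trna745-GluCTC was the tRNA name with most testis reads. It had 12441 reads there, 2270 in replicate 1 and 1771 in replicate 2, and stood at 0.0791 and 0.148 times the testis level (edgeR adjusted p = 9.7e-05). The lysine name chr9.trna1035-LysCTT had 288, 74 and 45 reads (0.111 and 0.162), and the arginine name chr6.trna107-ArgCCT 116, 1 and 2 reads (0.00374 and 0.0179). All 3 were lower under both denominators and in both edgeR tests. GluCTC held most of the testis reads of the 119 compared tRNA names, 12441 of 18971.

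**Figure D2:**
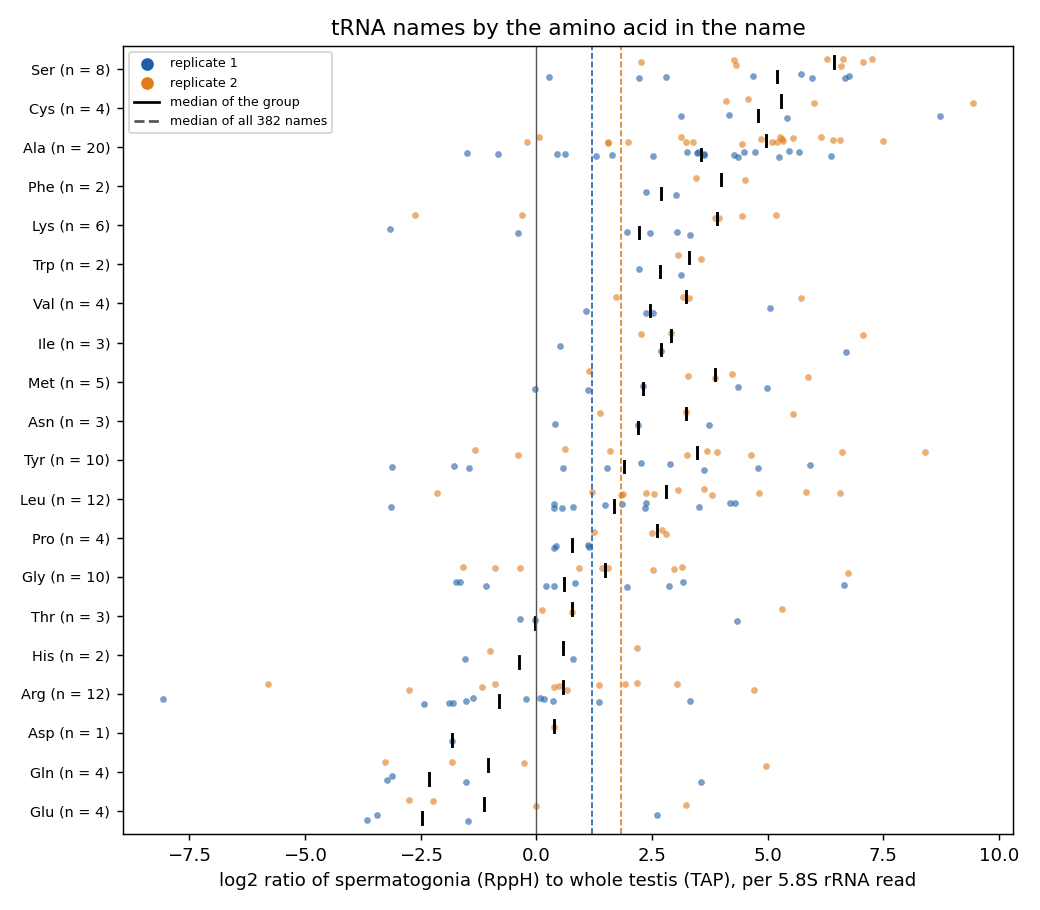
Log2 ratio of spermatogonia to whole testis per 5.8S rRNA read (horizontal axis) for the 119 tRNA names, grouped by amino acid and ordered by the group median, with replicate 1 in blue, replicate 2 in orange, black bars for medians and dashed lines for the medians of all 382 names. Serine and cysteine names, none of which had 20 testis reads, lie at the top and most glutamate and glutamine names lie below 0, and names of the same amino acid often lie on both sides of 0.

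snoRNAs moved in both directions. Of the 82 box C/D names, 36 (43.9%) were over 2-fold higher in both replicates per 5.8S rRNA read and 22 (26.8%) lower, and of the 52 box H/ACA names 20 (38.5%) were higher and 14 (26.9%) lower, beside 53.1% and 14.7% of all 382 names. Per listed read the numbers were 31 (37.8%) and 26 (31.7%) for box C/D and 11 (21.2%) and 15 (28.8%) for box H/ACA, beside 43.7% and 19.4% of all names. edgeR called 29 box C/D names higher and 16 lower, and 8 box H/ACA names higher and 9 lower, per 5.8S rRNA read. Over all names that test called 34.0% higher and 10.5% lower. Of the box C/D names, 77 had at least 20 testis reads and the same median. Among the 37 such box H/ACA names the median log2 ratio was -0.36 instead of 0.72.

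The transcripts of the box C/D names at both ends of the range are shown to let their sequence and length be set beside the reads. The deposited name is that of a family and does not say which mouse gene was read, so the annotated gene of the same name was taken (GENCODE vM21, GRCm38). Capitals mark TGATGA in the first 30 bases, which 72 of 98 annotated Snord transcripts hold, and CTGA in the last 20 bases, which 96 of 98 hold. These are the core letters of the C and D boxes, searched on the transcribed strand. The higher names are shown by Snord65 (chr11:62604515-62604586, plus strand), Snord17 (chr2:144265979-144266216, minus strand) and Snord15a (chr7:99482785-99482932, minus strand), and the lower ones by Snord23 (chr7:15938762-15938870, minus strand), Snord85 (chr4:130749634-130749706, plus strand) and Snord88a (chr7:44250135-44250224, plus strand).
Snord65: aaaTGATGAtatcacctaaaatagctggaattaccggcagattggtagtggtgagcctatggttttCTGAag
Snord17: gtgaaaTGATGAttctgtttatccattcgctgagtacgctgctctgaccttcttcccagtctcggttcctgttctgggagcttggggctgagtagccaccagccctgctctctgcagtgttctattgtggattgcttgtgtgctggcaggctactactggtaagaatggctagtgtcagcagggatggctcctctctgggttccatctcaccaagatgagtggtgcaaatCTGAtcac
Snord15a: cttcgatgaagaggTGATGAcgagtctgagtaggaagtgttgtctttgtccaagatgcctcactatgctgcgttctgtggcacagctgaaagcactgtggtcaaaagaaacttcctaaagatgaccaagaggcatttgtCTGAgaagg
Snord23: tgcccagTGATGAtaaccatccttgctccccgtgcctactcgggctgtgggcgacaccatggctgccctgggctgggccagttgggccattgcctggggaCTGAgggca
Snord85: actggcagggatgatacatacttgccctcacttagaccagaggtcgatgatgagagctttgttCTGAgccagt
Snord88a: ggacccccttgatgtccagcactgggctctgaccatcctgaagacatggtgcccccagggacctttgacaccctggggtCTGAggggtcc

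Snord17 and Snord15a are annotated with 238 and 148 bases, within the selected inserts, and Snord65, Snord23, Snord85 and Snord88a with 72, 109, 73 and 90 bases, under the 115 nt of the shortest. An annotated length was found for 56 of the 82 box C/D names, of which 52 were under 115 nt. With a length for 68.3% of the box C/D and 53.8% of the box H/ACA names, fewer than 80% were matched, and a check of the ratios against length was void.

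SNORD15 had the most spermatogonia reads of the box C/D names, 73637 and 25220 against 837 in testis. Its ratio per 5.8S rRNA read was 38.1 (35.6 to 40.8) and 31.3 (29.2 to 33.6), and 29.7 and 16.1 per listed read (edgeR adjusted p = 0.0084 and 0.012). SNORD65 had 43, 4598 and 1802 reads (46.3 and 43.6) and SNORD17 61, 6536 and 2270 reads (46.4 and 38.7). SNORD88 had 14709 reads in testis, 485 in replicate 1 and 403 in replicate 2, or 0.0143 and 0.0285 times the testis level (edgeR adjusted p = 2.6e-10). SNORD23 fell from 375 testis reads to 2 and 4, with ratios of 0.00231 (0.000576 to 0.00928) and 0.0111 (0.00414 to 0.0297). SNORD85 had 139, 10 and 4 reads (0.0312 and 0.0299). The replicates lay on the same side of testis for each of these 6 names, under both denominators. That was nearly given, since the names were chosen as the highest and lowest mean ratios of the same replicates.

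Among the box H/ACA names, SNORA8 had the most spermatogonia reads, 28389 and 9849 against 189 in testis. Its ratios of 65.1 and 54.2 per 5.8S rRNA read were the highest of the class (edgeR adjusted p = 8.9e-06). SNORA14 had 30, 1855 and 688 reads (26.8 and 23.8), and SNORA13 1, 91 and 41 reads, whose ratios of 39.4 and 42.6 rest on that 1 testis read. SNORA43, SNORA26 and SNORA65 had 181, 183 and 176 testis reads, 3, 5 and 14 reads in replicate 1, and 1, 1 and 3 in replicate 2. Their ratios were between 0.00568 and 0.0345, and all 3 were lower in edgeR under both denominators. Their annotated transcripts, shown because their lengths lie within the selected inserts, are Snora43 (chr2:26637847-26637985, minus strand), Snora26 (chr5:74093530-74093650, plus strand) and Snora65 (chr2:32963291-32963420, plus strand), of 139, 121 and 130 bases, with capitals for ACA in the last 8 bases, found in 40 of 42 annotated Snora transcripts.
Snora43: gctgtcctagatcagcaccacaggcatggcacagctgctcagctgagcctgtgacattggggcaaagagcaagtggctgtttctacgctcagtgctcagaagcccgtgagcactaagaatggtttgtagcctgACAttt
Snora26: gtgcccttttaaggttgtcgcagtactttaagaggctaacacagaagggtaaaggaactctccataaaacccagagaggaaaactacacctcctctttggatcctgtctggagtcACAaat
Snora65: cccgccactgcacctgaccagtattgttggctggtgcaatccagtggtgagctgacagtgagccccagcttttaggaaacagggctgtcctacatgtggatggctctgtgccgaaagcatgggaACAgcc

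The 12 other snoRNA names held the lowest ratio of all 382 names. snoU6-53 had 1443 reads in testis, 7 in replicate 1 and 2 in replicate 2, or 0.00210 and 0.00144 times testis (edgeR adjusted p = 1.6e-25). snoZ17 had 1632, 32 and 16 reads (0.00850 and 0.0102) and snoU83B 10833, 2438 and 1743 (0.0975 and 0.167). snoMBII-202 stood apart with 293 testis reads against 30270 and 18391, ratios of 44.8 and 65.3 (edgeR adjusted p = 0.00013), and snoU2 had 2, 92 and 31 reads (19.9 and 16.1). snoZ40 had 520, 2251 and 1373 reads (1.88 and 2.74) and did not pass edgeR (adjusted p = 0.075).

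**Figure D3:**
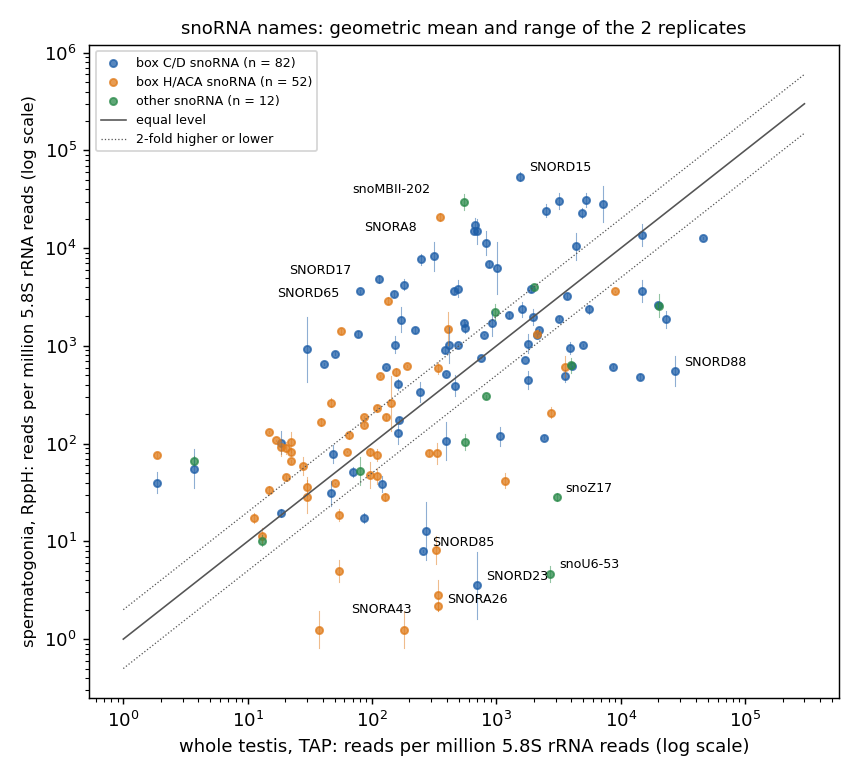
Level, as reads per 1000000 reads of 5.8S rRNA, of the 146 snoRNA names in whole testis (horizontal, log scale) and in spermatogonia (vertical, log scale), with a point at the geometric mean of the 2 replicates, a vertical line over their range, a solid line at equal levels and dotted lines at 2-fold. Points lie far to both sides of the solid line, from snoU6-53 at 0.00210 and 0.00144 times testis to SNORA8 at 65.1 and 54.2 times.

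U1 and U6 snRNA were higher in spermatogonia and U4, U5 and U7 were not separated from testis, subject to a limit in how the testis reads were named. U1a1, the common U1 snRNA, had 3192 reads in testis, 77384 in replicate 1 and 117163 in replicate 2. Its ratio per 5.8S rRNA read was 10.5 (10.1 to 10.9) and 38.2 (36.8 to 39.5), and edgeR gave adjusted p = 0.14 per 5.8S rRNA read and 0.027 per listed read. U1b6, a U1 variant, had 74, 7911 and 11204 reads (46.3 and 157). U6, the polymerase III snRNA at the catalytic centre of the spliceosome, had 84, 11044 and 11183 reads (57.0 and 138), and both passed edgeR under each denominator.

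The testis library also held 165065 reads under snRNA names that identify no RNA, 53.5% of its 308374 snRNA reads. All snRNA reads together were 0.373 times the testis level per 5.8S rRNA read in replicate 1 and 1.32 times in replicate 2. If all unidentified reads were U1a1, its ratio would be 0.199 and 0.724, and if all were U6, it would be 0.0290 and 0.0704. If all were U5, U4 or U7, that name would be at 0.239 and 0.852, 0.00427 and 0.0122, or 0.000825 and 0.0032. The direction of the U1 and U6 ratios and the place of U4, U5 and U7 thus depend on what those reads are, which was not tested.

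U5 had the most reads, 138302 in testis, 167207 in replicate 1 and 248617 in replicate 2. Its ratio was 0.524 in replicate 1 and 1.87 in replicate 2 per 5.8S rRNA read (edgeR adjusted p = 0.97), on opposite sides of testis. U4 with 1267, 1638 and 1945 reads (0.560 and 1.6) and U7 with 390, 315 and 509 reads (0.350 and 1.36) did the same. Per listed read these 3 were below testis in both replicates, at 0.272 to 0.963 times, without passing edgeR. The 5S rRNA, with 22417, 19805 and 35245 reads, also changed sides (0.383 and 1.63) and was at 0.298 and 0.842 times per listed read. Of the Y RNAs, small RNAs bound by the Ro protein, Y1 had 51, 300 and 271 reads (2.55 and 5.52, edgeR adjusted p = 0.059) and Y3 38, 57 and 45 (0.650 and 1.23).

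LTR and LINE names had few reads. Of the 48 LTR names, 27 (56.2%) were over 2-fold higher in both replicates per 5.8S rRNA read, near the 53.1% of all 382 names. None was lower, beside 14.7% of all names. These shares are not alike, since 45 of the 48 had fewer than 20 testis reads. Such a name met the minimum less readily when it was low in spermatogonia. Of the 56 names of all classes called lower, 55 had at least 20 testis reads. edgeR called 9 of the 48 higher, beside 34.0% of all names. Only 3 of them had 20 or more testis reads. IAPEz-int, the internal part of the intracisternal A particle, had the most reads, 64 in testis, 1123 in replicate 1 and 688 in replicate 2, and was 7.60 (5.91 to 9.78) and 11.2 (8.65 to 14.4) times higher (edgeR adjusted p = 9.9e-05, and 0.019 per listed read). MTA_Mm, a young MaLR element of mouse, had 4, 186 and 134 reads (20.2 and 34.8), MTB 4, 116 and 73 (12.6 and 19.0) and IAPEy-int 3, 72 and 36 (10.4 and 12.5), and all passed edgeR under both denominators. These were chosen as the highest ratios of the class and met the minimum through spermatogonia reads, so passing the test adds no support. MERVL-int (10, 87 and 48 reads, 3.77 and 4.99) and ORR1A3-int (9, 66 and 30 reads, 3.18 and 3.47) did not pass. MTD, an older MaLR element, had 37, 72 and 36 reads and stood at 0.843 (0.567 to 1.25) and 1.01 (0.639 to 1.6) times testis.

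Of the 24 LINE names, 16 (66.7%) were over 2-fold higher and 2 (8.33%) lower, beside 53.1% and 14.7% of all 382 names. Of these 24, 21 had fewer than 20 testis reads. edgeR called 2 of them higher and 1 lower, beside 34.0% and 10.5% of all names. The testis and spermatogonia tables list partly different L1 names, so reads of one element may stand under different names, which was not tested. L1_Mur3 had 21, 185 and 100 reads (3.82 and 4.95), L1_Mur2 14, 124 and 71 (3.84 and 5.27), L1_Mur1 13, 88 and 77 (2.93 and 6.16) and Lx7 7, 57 and 37 (3.53 and 5.49), and none of these passed edgeR (adjusted p of 0.12 to 0.14 per 5.8S rRNA read). Names chosen after their values were seen were L1_Mus3, listed with 90 reads in testis and 1 and 2 in spermatogonia (edgeR adjusted p = 9e-06), MusHAL1 with 20, 23 and 6 reads, and Lx and Lx4A, the 2 names that edgeR called higher per 5.8S rRNA read, each from 1 testis read. None of the 3 DNA transposon names was past 2-fold in both replicates per 5.8S rRNA read, and URR1B with 23, 32 and 9 reads had ratios of 0.603 and 0.407.

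The spermatogonia replicates differed from each other by class. Per 5.8S rRNA read 293 of the 382 names were higher in replicate 2, whose share of 5.8S rRNA was smaller, and per listed read 189 were. On the latter scale the median name of the snRNA class was 2.31 times as high in replicate 2 as in replicate 1, with all 6 names higher there, and 5S rRNA was 2.83 times as high. The tRNA names had a median of 1.36 times, with 94 of 119 higher in replicate 2. The box H/ACA names had a median of 0.632 times, with 47 of 52 lower in replicate 2, and box C/D names 0.751 times, with 62 of 82 lower. The replicates lay on opposite sides of testis for 36 names per 5.8S rRNA read and for 22 per listed read. Of the 203 names called higher, 23 had a replicate whose counting interval reached 1, and none of the 56 called lower did.

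**Figure D4:**
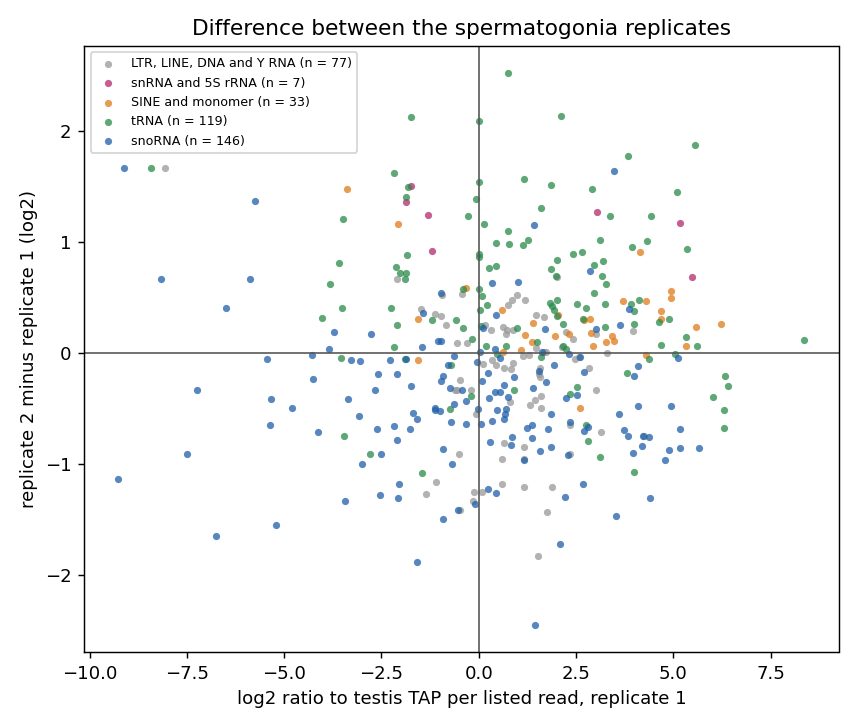
Difference between the spermatogonia replicates (vertical, log2 of replicate 2 over replicate 1 per listed read) against the log2 ratio of replicate 1 to testis per listed read (horizontal) for the 382 names, coloured by class. Most snoRNA points lie below the horizontal line at 0, and the 7 snRNA and 5S rRNA points and most tRNA points lie above it.

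Whole testis had a second enzyme-treated library, made with 5′ polyphosphatase, which removes triphosphates and leaves caps. With it in place of the TAP library, the median log2 ratio per 5.8S rRNA read was 4.12 for B2 names, 2.69 for young B1, 2.43 for older B1 and 5.07 for ID, so these classes stayed above testis. In the TAP comparison the ID names had met the minimum only through spermatogonia reads, so their median is no support. The tRNA median was 0.91. The box C/D median was -3.08 and the box H/ACA median -0.37, against 0.70 and 0.72 with TAP. Per 5.8S rRNA read, the direction of the snoRNA medians thus turned with the testis library. The 5.8S rRNA took 19.2% of the listed reads in the 5′ polyphosphatase library against 50.2% in the TAP library. A smaller share in testis lowers a ratio on this scale by itself. Not every median fell, since the snRNA median was 4.76 against 2.15 with TAP and the LINE median 1.99 against 1.66. Class medians per listed read were not computed with this library, so whether the box C/D and box H/ACA medians turn on that scale was not tested. When both testis libraries entered the edgeR test as 1 testis group, 39 names were higher and 22 lower per 5.8S rRNA read, and 87 and 44 per listed read. The 2 testis libraries were made with different enzymes, so differences between the enzymes entered this test as spread within testis.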

How the data were processed

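The deposited tables give raw read counts for every RNA or repeat name of a library. Before deposit the authors trimmed their MiSeq reads of the 3′ adaptor (Cutadapt), kept only reads that contained it and annotated them with RepeatMasker. The versions of these tools are not given in the sources used here. Text after a slash and a leading rRNA_ were stripped from names. From the counts, the ratio of each spermatogonia library to testis TAP was computed per 5.8S rRNA read and per listed read, with a 95% interval on the log scale from the reciprocals of the counts. A name counted as higher or lower only past 2-fold in both replicates, and a count of 0 was set to a floor of 3 reads. Names were tested with edgeR 4.0.16 (glmQLFTest, library size set to the denominator, 1 residual degree of freedom, Benjamini-Hochberg over the 382 names). On data simulated with 382 names, edgeR recovered 77.6% of 32-fold changes. The simulation used a set dispersion of 0.3, not estimated from these data, and testis levels from the reads of all 3 libraries pooled. The low testis counts of the real comparison were thus not reproduced, and the share need not hold for it.

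The report describes every B1, B2, B3, B4 and ID name, every snRNA, Y RNA and 5S name, and, in each other class of at least 3 names, the one with most reads and the 3 highest and 3 lowest among names with 100 or more reads. LINE and DNA had too few such names for all of these. Names, lists and classes were chosen with earlier results of these data known. Alternatives changed the denominator, the minimum of reads, a pseudocount of 0.5, the testis library, the replicates, and edgeR against DESeq2 1.42.0. Transcript sequences of snoRNAs were read from GENCODE vM21, and those of snRNAs are not reported here. Tables and figures were made with Python 3.11.15, pandas 2.3.3 and matplotlib 3.10.9.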

Additional observations from a re-analysis of the deposited data

Results flagged for a closer look

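The names below were listed with 100 or more reads in both spermatogonia libraries and were not listed in the testis TAP library, so they stood outside the comparison. They drew attention as reads in data that the comparison did not use. The tRNA names were chr6.trna1029-CysGCA with 961 reads in replicate 1 and 553 in replicate 2, chr3.trna757-AsnGTT with 210 and 324, chrX.trna637-AlaTGC with 157 and 101, and chr6.trna162-CysGCA with 104 and 100. The LINE names were L1MdTf_III (459 and 364), L1MdV_III (331 and 228), L1MdV_I (292 and 258), L1MdFanc_I (208 and 168), L1MdTf_II (199 and 135) and L1MdV_II (169 and 144). The testis table lists young L1 elements under other names, so these LINE reads cannot be compared between the tables. Against the 3 reads that a missing testis name allows, chr6.trna1029-CysGCA would be at least 139-fold higher per 5.8S rRNA read in replicate 1 and at least 192-fold in replicate 2.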

How the results depend on the processing

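No paired analysis was possible because the testis TAP group has 1 library and shares no replicate number beyond it with the spermatogonia libraries. Without either replicate no residual degree of freedom remained for edgeR. Tissue, enzyme and kit cannot be told apart, and 55 names rest on at most 3 testis reads.

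Counts of names that moved over 1.5 times were as follows, and the cause was not tested unless stated. With the testis 5′ polyphosphatase library, 131 names were past 2-fold higher and 127 lower per 5.8S rRNA read, and edgeR called 57 higher and 95 lower, whereas per listed read the numbers were 170 and 97, and 89 and 76 by edgeR. With TMM scaling, chosen for the ratios after seeing the data, 104 were past 2-fold lower, and edgeR called 85 higher and 75 lower. With at least 20 reads in testis TAP, also chosen after seeing the data, 210 names were left, of which 79 per 5.8S rRNA read and 67 per listed read were past 2-fold higher, and edgeR called 72 and 60 higher. With unlisted counts taken as 0, which adds names absent from testis, edgeR called 210 higher per 5.8S rRNA read and 176 per listed read. With TAP and 5′ polyphosphatase as 2 testis libraries it called 39 higher and 22 lower per 5.8S rRNA read, and 87 and 44 per listed read. Other counts moved by less than 1.5 times, among them DESeq2 with 137 higher and 41 lower per 5.8S rRNA read, and the ratios without either replicate, with 208 to 239 names past 2-fold higher and 59 to 78 lower.

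The median log2 ratio of a class moved by more than the spread between the replicates in these cases. Per listed read it was 5.12 for B2, 3.01 for older B1, 1.10 for B4 and composite names, 1.10 for PB1 and FAM, 1.0 for LINE, 0.77 for LTR, -0.26 for DNA, -1.51 for MIR, 0.044 for box C/D, 0.057 for box H/ACA and -1.68 for other snoRNA names. With TMM scaling it was 4.58 for B2, 4.0 for young B1, 2.47 for older B1, 4.67 for ID, 0.56 for B4 and composite names, 0.56 for PB1 and FAM, 0.47 for LINE, 0.23 for LTR, 1.51 for tRNA, -0.80 for DNA, -2.05 for MIR, -0.49 for box C/D, -0.48 for box H/ACA and -2.22 for other snoRNA names. With the 5′ polyphosphatase library it was 4.12 for B2, 2.69 for young B1, 2.43 for older B1, 5.07 for ID, 4.76 for snRNA, 1.99 for LINE, 2.14 for DNA, 0.91 for tRNA, 0.58 for PB1 and FAM, 0.57 for LTR, 0.39 for MIR, -0.37 for box H/ACA, -3.08 for box C/D and -3.84 for other snoRNA names. With 20 reads in testis TAP the LINE median turned to -1.34 and the LTR median to -0.11, each over 3 names, and it was -1.01 for DNA, -0.36 for box H/ACA, -1.94 for other snoRNA names, 0.24 for tRNA and 1.19 for PB1 and FAM. Per listed read without 18S and 28S rRNA it was 1.47 for LINE, 0.51 for box C/D and 0.52 for box H/ACA. Without 5.8S rRNA as well it was 1.33, 0.37 and 0.39, and -1.35 for other snoRNA names, and per sequenced read 1.43, 0.47 and 0.48. With a minimum of 100 reads it was 2.13 for LINE, 3.06 for LTR, 1.93 for MIR (1 name), 0.89 for box H/ACA and -1.44 for other snoRNA names, and without a minimum 0.95, 0.72 and 0.58 for LINE, LTR and box H/ACA. With 0.5 reads added it was 0.68 for box H/ACA. With 1 replicate alone it was between 0.65 and 0.91 for box C/D and between 0.63 and 0.65 for box H/ACA.

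Of the named RNAs past 2-fold, ORR1A3-int reversed to -0.17 with the 5′ polyphosphatase library, and U1a1, U1b6 and U6 to -1.40, -4.71 and -4.47 when all unidentified snRNA reads of testis were added to each in turn, an alternative chosen after seeing the data. In 661 other combinations of a named RNA and an alternative the log2 ratio moved by less than the spread between replicates, and in 228 by more. Many of the 661 were fixed in advance and say nothing of robustness. A changed minimum of reads (74, 76 and 53 combinations) leaves the ratio of a name as it was. Leaving out replicate 1 or 2 (76 combinations each) always moves the mean by less than that spread.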

Other observations

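Beside the 382 names compared, 106 names were listed in all 3 libraries with fewer than 20 reads summed, 77 with 20 or more reads were not listed in testis TAP, and 14 with 20 or more were listed in testis TAP only. Among the latter, the unidentified name snRNA_small had 140370 reads and snRNA_RNA had 23235.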
